A study of Macaca mulatta with 4 samples.

Results

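The cadherin and protocadherin genes of the rhesus macaque amygdala were followed in 4 RNA-seq libraries, 2 from animals exposed to sevoflurane and 2 from controls. Members were the gene entries whose symbol was CDH followed by a number or began with PCDH, leaving out CDH5 and PCDH11Y. The count table held 47 such genes among its 35395 gene IDs. Of these, 44 had 10 or more reads in at least 2 libraries and were kept, namely 16 classical cadherins, 4 non-classical cadherins, 12 clustered protocadherins and 12 non-clustered protocadherins. The 3 genes below that minimum were CDH1 (E-cadherin), CDH16 and PCDHB1. CDH1 had 7 and 8 reads in the sevoflurane libraries, against 4 and 4 reads in the control libraries. PCDHB1 had 16 and 7 reads in the sevoflurane libraries, against 1 and 1 in the control libraries. CDH16 had 10 reads in the control male and 0 in the other 3 libraries, where a count of 0 allows a level of up to 0.19 to 0.206 CPM (read counts scaled to library size) by counting error alone. Of the kept genes, 43 entered the test, and CDH17 did not, with 7 and 13 reads in the sevoflurane libraries against 10 and 3 reads in the control libraries.

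The sevoflurane group was 1 female and 1 male macaque that inhaled sevoflurane, a volatile general anaesthetic, at about 2.5 to 3% for 4 hours on about postnatal days 7, 21 and 35. Their amygdala, a brain region central to emotional learning, was collected straight after the third exposure. The control group was 1 female and 1 male labelled only as control, and all 4 animals were labelled wild type. The sources used here do not give what the controls breathed, how they were handled or their age at collection, so the anaesthetic and the handling that went with it cannot be told apart. With 2 libraries per condition, 1 of each sex, the spread within a condition is also the difference between the sexes, and p-values measure only the spread between these libraries. Because the tissue was sequenced in bulk, fewer cells of a type and less RNA per cell cannot be told apart.

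Cadherins are calcium-dependent adhesion proteins built from repeated extracellular cadherin domains. Classical cadherins bind the same or a related cadherin on the neighbouring cell and hold the actin cytoskeleton through catenins. Type II members are typically expressed in restricted sets of brain regions and circuits. Clustered protocadherins are arranged in gene clusters, are chosen in combinations by single neurons, and take part in neurite self-avoidance. Non-clustered protocadherins, the delta subfamilies among them, lie outside the clusters, and several act in axon growth, synapse formation and cell sorting.

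Total depth was 14413858 and 13615927 reads in the sevoflurane libraries and 16293371 and 12477047 reads in the control libraries. Condition separated the libraries widely over all genes, with 6278 of 15417 tested genes called (40.7%), 3282 of them higher (21.3%) and 2996 lower (19.4%). Calls were made at an adjusted p under 0.05 by edgeR's quasi-likelihood test with Benjamini-Hochberg adjustment over all tested genes. The summed level of 11 neuronal markers was 7067 and 7743 CPM in the sevoflurane libraries, against 6806 and 6043 CPM in the control libraries, with 2 markers called higher and 1 lower. Astrocyte markers summed to 3073 and 3877 CPM in the sevoflurane libraries and 4352 and 4061 CPM in the control libraries, with 2 of 8 higher and 3 lower. Oligodendrocyte markers summed to 2879 and 3802 CPM in the sevoflurane libraries and 1396 and 6034 CPM in the control libraries, with 1 of 7 higher, or 4 of 7 without the control male. Markers of oligodendrocyte precursors summed to 232 and 246 CPM in the sevoflurane libraries and 214 and 289 CPM in the control libraries, with 1 of 6 higher and 1 lower. Microglial markers summed to 179 and 239.9 CPM in the sevoflurane libraries, against 479 and 439 CPM in the control libraries, with 6 of 8 lower. Endothelial markers summed to 177 and 153 CPM in the sevoflurane libraries and 382 and 433 CPM in the control libraries, with 1 of 8 higher and 3 lower. Leptomeningeal fibroblast markers summed to 260.4 and 219.8 CPM in the sevoflurane libraries and 690 and 390.1 CPM in the control libraries, with 1 of 8 higher and 4 lower. Choroid plexus markers summed to 40.8 and 10.8 CPM in the sevoflurane libraries, against 71.4 and 18369.7 CPM in the control libraries. Of these, 3 of 8 were called lower, or 9 of 11 without the control female, and KCNJ13 had 0 reads in both sevoflurane libraries. Of 72 ribosomal protein genes, 65 were called lower, and their sum was 9922 and 10119 CPM in the sevoflurane libraries against 29009 and 41409 CPM in the control libraries. Some marker calls rested on 1 library. The call higher among precursor markers and the call higher among fibroblast markers were the same gene, PDGFRA, which is on both lists. Its call was lost without any 1 library other than the sevoflurane female. The oligodendrocyte call was lost without the sevoflurane male. The neuronal call lower was lost without the sevoflurane male or the control female, and 2 were lower without the sevoflurane female. The part that these cell type markers and the ribosomal protein genes have in the cadherin results was not tested.

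Of the 43 members tested, 18 rose with sevoflurane (41.9%, against 21.3% of all genes called higher) and 25 were not called. None was called lower by edgeR, against 19.4% of all genes, and none was lower at an unadjusted p under 0.05 or by DESeq2. The share of members called in either direction, 41.9%, was close to the 40.7% over all genes. Their median log2 fold change was 1.10, with quartiles of 0.26 and 2.54, against a median of 0.00 over all genes. Both sevoflurane libraries lay above both control libraries in 30 members, below them in 3, and the conditions overlapped in 10. Over all genes, both sevoflurane libraries lay above both controls in 37.7% and below in 37.3%, and 75.0% did not overlap. Reads on the members made up 0.302% and 0.286% of the sevoflurane libraries, against 0.161% and 0.123% of the control libraries. Without the sevoflurane male, 9 members were called higher (20.9%), against 12.2% of all genes called higher. Without the control male, the library with 18369.7 CPM of choroid plexus markers, 13 members were called higher (30.2%), against 15.3% of all genes, and 0 lower. With sex as a term in the fit, 24 members were called higher (55.8%), against 25.9% of all genes. CDH15, PCDHB2 and PCDHB8 reached the read minimum in 1 condition only, and 17 of the 40 members without them were called higher.

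**Figure D1:**
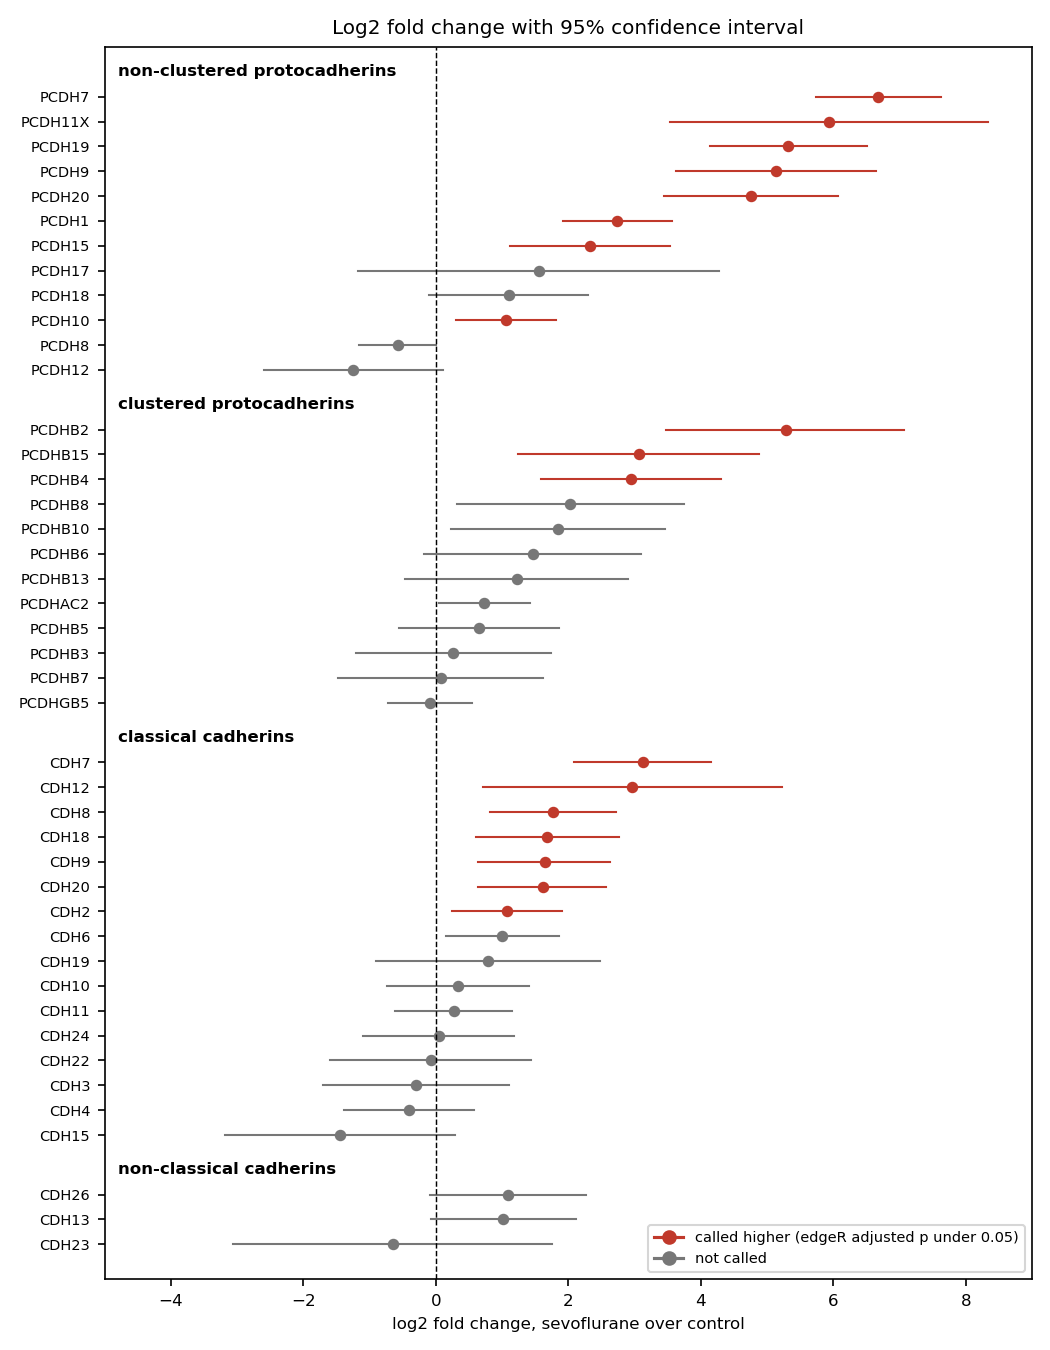
Log2 fold change of sevoflurane over control on the horizontal axis for the 43 tested members, grouped by class, with 95% confidence intervals as bars and called genes marked by colour. All 18 called members lie right of 0, and the 4 delta-1 protocadherins lie between 2.74 and 6.68.

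Members that rose were found in 3 of the 4 classes. Over all genes, 21.3% were called higher. Of the non-clustered protocadherins 8 of 12 were called higher (66.7%), with a median log2 fold change of 2.54. Classical cadherins had 7 of 16 called higher (43.8%) and a median of 0.90. Clustered protocadherins had 3 of 12 called higher (25%), close to the share of all genes, and a median of 1.34. Without PCDHB2 and PCDHB8, which reached the read minimum through the sevoflurane libraries alone, 2 of 10 were called higher (20%) and the median was 0.97. None of the 3 tested non-classical cadherins was called by edgeR, at an unadjusted p under 0.05 or by DESeq2, and their median was 1.02. No test compared one class with another, so these counts describe the classes. Leaving out the sevoflurane male gave fewer classical and clustered members called higher, and the share of all genes called higher fell too. The classical share was then close to that of all genes and the clustered share was below it. The medians were then 0.74 for classical and 1.77 for clustered members. Fewer classical members, and fewer of all genes, were also called higher without the sevoflurane female (classical median 0.88) or the control male (1.17).

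**Figure D2:**
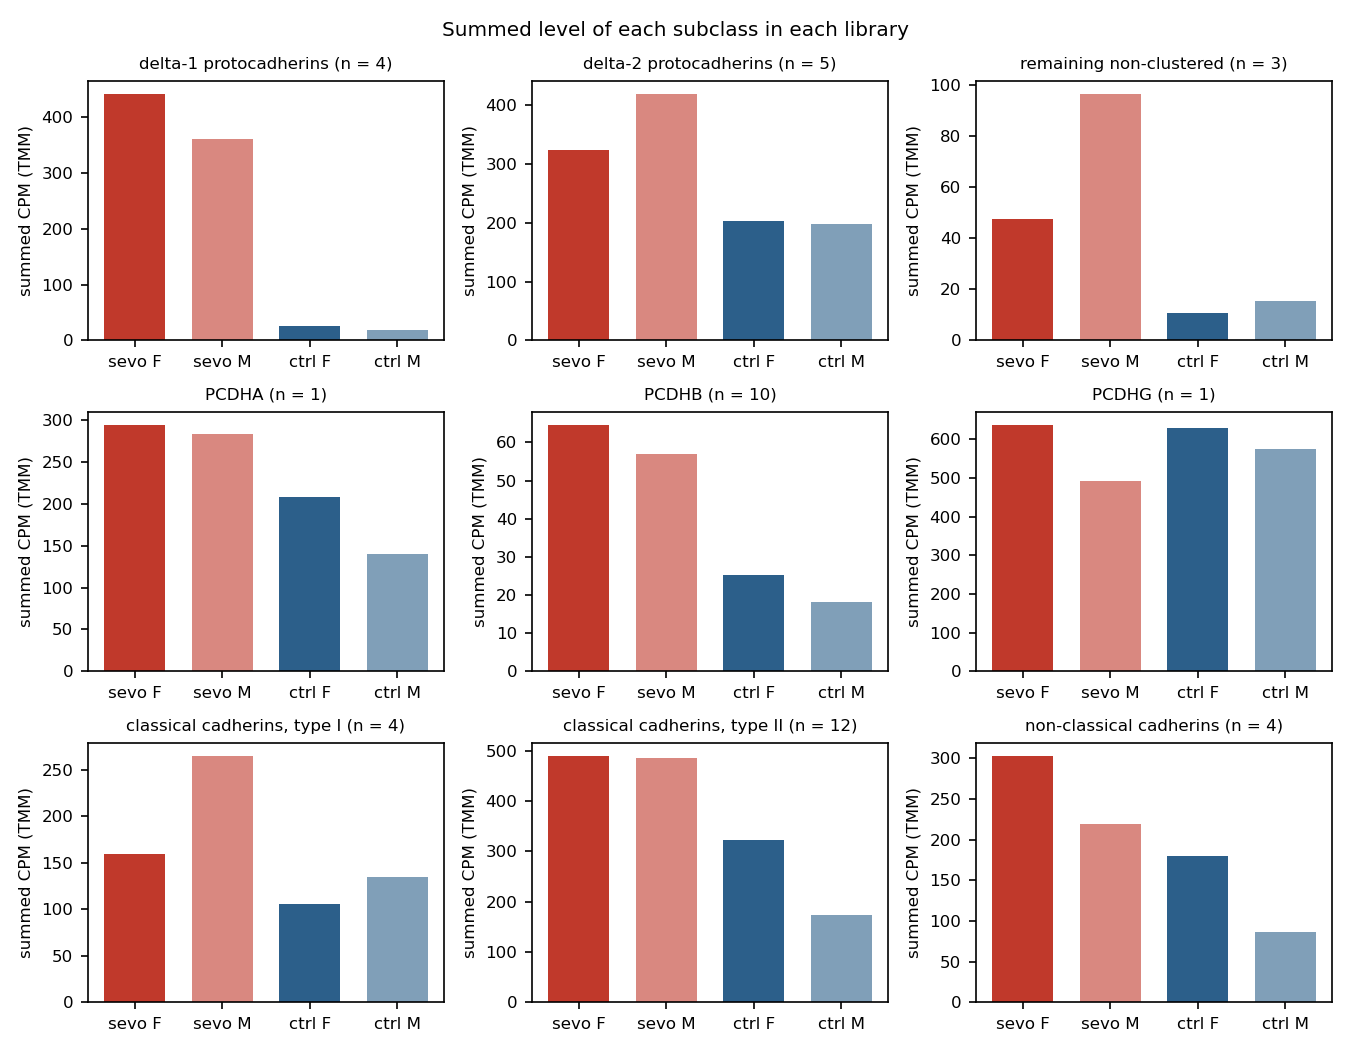
Summed level in CPM scaled by the trimmed mean of M-values (TMM), 1 bar per library and 1 panel per subclass, with vertical axes that start at 0 and differ between panels. The delta-1 bars are 441 and 360.2 CPM in the sevoflurane libraries against 26.4 and 17.9 CPM in the control libraries, whereas the PCDHG bars overlap between conditions.

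The delta-1 protocadherins, PCDH1, PCDH7, PCDH9 and PCDH11X, all rose. Together they had 441 and 360.2 CPM in the sevoflurane libraries, against 26.4 and 17.9 CPM in the control libraries. They held 16% and 13.5% of all reads on the members in the sevoflurane libraries, against 1.54% and 1.31% in the control libraries. Both sevoflurane libraries therefore stood well above both controls for the subgroup as a whole.

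PCDH7 (ENSMMUG00000011898), whose cytoplasmic part can bind protein phosphatase 1, had the highest fold change of all members. It had 79.6 and 86.7 CPM in the sevoflurane libraries, against 0.652 and 0.977 CPM in the control libraries. These levels rest on 1258 and 1262 reads with sevoflurane and 10 and 11 reads in the controls. The groups were far apart and each pair of libraries lay close together. This gave a log2 fold change of 6.68 ± 0.39 (SE), or 103-fold (edgeR adjusted p = 0.00141).

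PCDH9 (ENSMMUG00000005620), an adhesion protein of cortical and hippocampal neurons, had 187 and 159.9 CPM in the sevoflurane libraries, against 7.70 and 2.04 CPM in the control libraries. The control female was the higher of the controls and still far below both sevoflurane libraries. PCDH9 thus had a log2 fold change of 5.13 ± 0.63 by edgeR (adjusted p = 0.00283). Leaving out the control female gave 6.42 and leaving out the control male gave 4.46, called in both cases.

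PCDH11X (ENSMMUG00000012777), the X-linked delta-1 gene, had 41.5 and 32.7 CPM in the sevoflurane libraries, against 1.11 and 0 CPM in the control libraries. The controls had 17 reads in the female and 0 in the male, where a count of 0 allows up to 0.266 CPM. The log2 fold change was 5.93 ± 1.0 (edgeR adjusted p = 0.00621), and the ratio of summed reads scaled by library size was 58.3, with a 95% interval of 36.2 to 100.4 for counting error. Set against the control male alone, at 3 counts in that library, the sevoflurane level was at least 139.8-fold higher. Without the control male the log2 fold change was 5.02 and the gene stayed called.

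PCDH1 (ENSMMUG00000008710), which is also known from airway epithelium, had 132 and 81 CPM in the sevoflurane libraries, against 17 and 14.8 CPM in the control libraries. Its rise was the smallest of the subgroup, with a log2 fold change of 2.74 ± 0.34 by edgeR (adjusted p = 0.0029). The groups did not overlap.

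**Figure D3:**
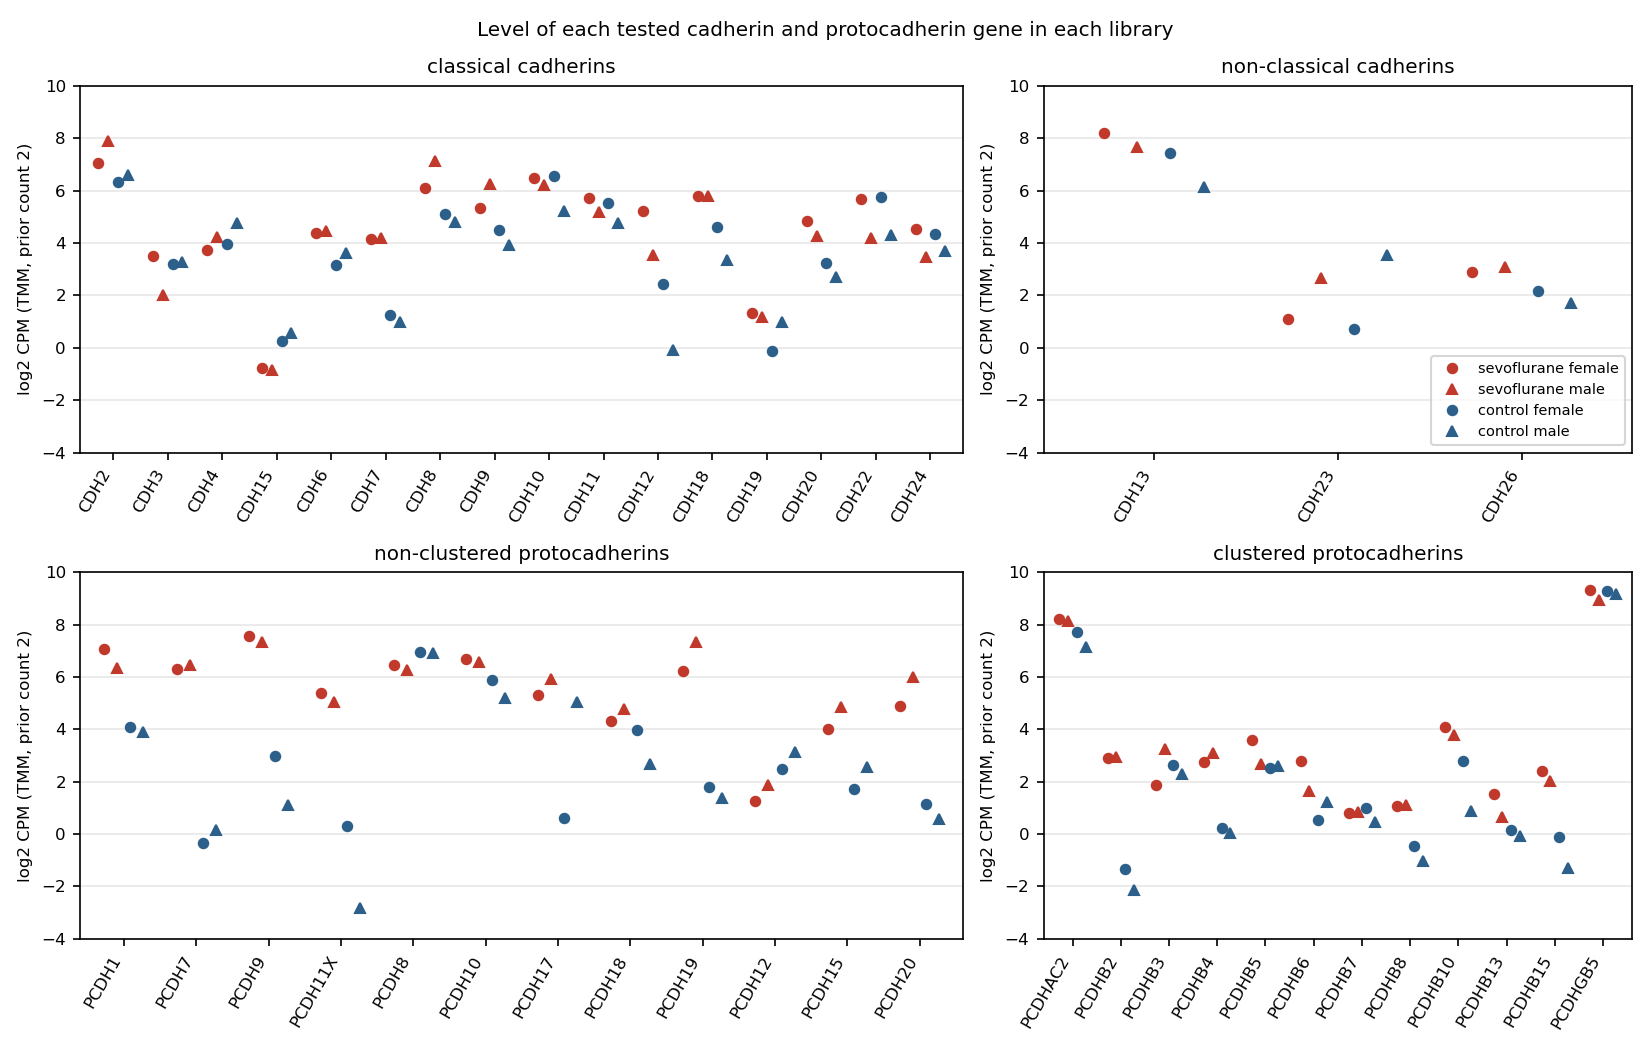
Level of each member in each of the 4 libraries, as log2 CPM with a prior count of 2, with members grouped by class and the sevoflurane libraries left of the controls. PCDH7, PCDH9, PCDH11X, PCDH19, PCDH20 and PCDHB2 show the widest steps between conditions, and PCDHGB5 is near the same level in all 4 libraries.

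Among the delta-2 protocadherins, PCDH10 and PCDH19 rose and PCDH8, PCDH17 and PCDH18 were not called. Their summed level was 324 and 419.7 CPM in the sevoflurane libraries, against 203 and 198 CPM in the control libraries. The subgroup held 11.7% and 15.7% of the reads on members with sevoflurane and 11.9% and 14.6% in the controls, so its share overlapped between conditions.

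PCDH19 (ENSMMUG00000011078), the X-linked gene mutated in a human epilepsy that mainly affects girls, had 75.3 and 159.7 CPM in the sevoflurane libraries, against 3.33 and 2.49 CPM in the control libraries. The sevoflurane male was the highest library, and the groups were far apart. For PCDH19 the log2 fold change was 5.32 ± 0.49 (edgeR adjusted p = 0.00181), or 4.69 and still called without the sevoflurane male.

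PCDH10 (ENSMMUG00000023149), which binds the actin regulator NCKAP1, had 102 and 96.1 CPM in the sevoflurane libraries, against 58.6 and 36.4 CPM in the control libraries. The groups did not overlap, and the log2 fold change was 1.06 ± 0.31 (edgeR adjusted p = 0.0357). The call was lost without the sevoflurane female (1.02), the sevoflurane male (1.10) or the control male (0.73).

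PCDH17 (ENSMMUG00000022272), which in mice takes part in presynaptic assembly in basal ganglia circuits, divided the controls. It had 39.6 and 60 CPM in the sevoflurane libraries, against 1.37 CPM in the control female and 32.8 CPM in the control male. Both sevoflurane libraries lay above both controls, but the controls were farther from each other than the control male was from either sevoflurane library. The log2 fold change was 1.55 with a 95% confidence interval of -1.18 to 4.28 (edgeR adjusted p = 0.307), and within sexes the difference was 4.72 in females and 0.87 in males. Without the control male the log2 fold change was 5.15 and the gene was called, and with sex as a term in the fit it was 2.63 and called (edgeR adjusted p = 0.00395). Without the control female it was 0.63 and not called (edgeR adjusted p = 0.325).

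PCDH8 (ENSMMUG00000013037), the homologue of rat arcadlin, which is induced by synaptic activity and drives internalisation of N-cadherin, had 86.7 and 76.7 CPM in the sevoflurane libraries, against 124 and 120.2 CPM in the control libraries. Both sevoflurane libraries lay below both controls, yet the difference was not called, with a log2 fold change of -0.58 and a 95% confidence interval of -1.16 to 0.00 (edgeR adjusted p = 0.0988). PCDH18 had 20 and 27.1 CPM in the sevoflurane libraries, against 15.7 and 6.31 CPM in the control libraries. Its log2 fold change of 1.10 was not called (edgeR adjusted p = 0.121), and without the control female it was 1.93 and called. With sex as a term it was 1.21 and called (edgeR adjusted p = 0.0376), and without the control male 0.56 and not called.

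The remaining non-clustered protocadherins are PCDH12, PCDH15 and PCDH20. PCDH20 (ENSMMUG00000053482) had 29.3 and 64.1 CPM in the sevoflurane libraries, against 2.09 and 1.33 CPM in the control libraries. The groups were far apart, with a log2 fold change of 4.75 ± 0.55 by edgeR (adjusted p = 0.00251), or 4.09 and still called without the sevoflurane male. PCDH15 (ENSMMUG00000009794), a tip-link protein of inner ear hair cells, had 16.1 and 28.8 CPM in the sevoflurane libraries, against 3.20 and 5.77 CPM in the control libraries. Its log2 fold change was 2.33 ± 0.50 (edgeR adjusted p = 0.0135), and without the sevoflurane male it was 1.85 and no longer called.

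PCDH12 (ENSMMUG00000006291) is a protocadherin of vascular endothelium. It had 2.28 and 3.57 CPM in the sevoflurane libraries, against 5.41 and 8.53 CPM in the control libraries. The groups did not overlap, with sevoflurane below control and without a call, at a log2 fold change of -1.25 with a 95% confidence interval of -2.60 to 0.10 (edgeR adjusted p = 0.117). The sum of 8 endothelial markers lay in the same order, at 177 and 153 CPM with sevoflurane and 382 and 433 CPM in the controls. Of these markers 3 were called lower and 1 higher. The higher 1 was FLT1, with 39.9 and 48.4 CPM in the sevoflurane libraries against 2.35 and 0.355 CPM in the control libraries. The part of the endothelial markers in the PCDH12 values was not tested.

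Of the type I classical cadherins, CDH2 was the only 1 of 4 called. CDH2 (N-cadherin, ENSMMUG00000015178), the main classical cadherin of neural tissue and synapses, had 134 and 242 CPM in the sevoflurane libraries, against 80.4 and 96.8 CPM in the control libraries. The groups did not overlap and the sevoflurane male stood highest. For CDH2 the log2 fold change was 1.08 ± 0.35 (edgeR adjusted p = 0.0468). The call was lost without the sevoflurane male (0.60), the control female (0.98) or the control male (1.20).

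The other type I members had negative and uncalled fold changes. CDH4 (R-cadherin, known from retina) had 13.3 and 18.9 CPM in the sevoflurane libraries, against 15.6 and 27.1 CPM in the control libraries. CDH3 (P-cadherin) had 11.3 and 3.91 CPM in the sevoflurane libraries, against 9.07 and 9.68 CPM in the control libraries. Both genes overlapped between conditions, with log2 fold changes of -0.41 for CDH4 and -0.30 for CDH3. Their signs turned with 1 library left out, to 0.02 for CDH4 without the control male and 0.28 for CDH3 without the sevoflurane male. CDH15 (M-cadherin of muscle) had 7 and 6 reads in the sevoflurane libraries, against 16 and 15 reads in the control libraries, so it passed the read minimum through the controls alone. Its log2 fold change was -1.45 (edgeR adjusted p = 0.151).

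Type II classical cadherins accounted for the other 6 classical members that rose, out of 12 tested. Their summed level was 489.9 and 486 CPM in the sevoflurane libraries, against 323 and 173 CPM in the control libraries. The 6 genes were CDH7, CDH8, CDH9, CDH12, CDH18 and CDH20, all known from neurons.

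CDH7 (ENSMMUG00000000576) had 17.7 and 18 CPM in the sevoflurane libraries, against 2.22 and 1.87 CPM in the control libraries. Libraries of a condition lay close together and the conditions far apart. The log2 fold change was 3.12 ± 0.43 (edgeR adjusted p = 0.00361), the largest among classical cadherins.

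CDH12 (ENSMMUG00000015092) had 37.2 and 11.7 CPM in the sevoflurane libraries, against 5.35 and 0.799 CPM in the control libraries. Females exceeded males in both conditions, and the groups did not overlap. For CDH12 the log2 fold change was 2.96 ± 0.93 (edgeR adjusted p = 0.045). It ranged over the libraries left out, at 1.92 without the sevoflurane female and 3.57 without the sevoflurane male, both uncalled. The value was 4.93 with the control female left out and 2.15 with the control male left out, both called.

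CDH8 (ENSMMUG00000018511), which in mice marks cold-responsive sensory circuits and striatal connections, had 69.1 and 142 CPM in the sevoflurane libraries, against 34.1 and 27.6 CPM in the control libraries. For CDH8 the log2 fold change was 1.77 ± 0.40 (edgeR adjusted p = 0.0151), or 1.17 and not called without the sevoflurane male. CDH9 (ENSMMUG00000019846), which in mice guides a specific hippocampal synapse, had 40.9 and 76.3 CPM in the sevoflurane libraries, against 22.6 and 15 CPM in the control libraries. In both genes the sevoflurane male was the highest library and the groups did not overlap. For CDH9 the log2 fold change was 1.64 ± 0.41 (edgeR adjusted p = 0.0222), with the call lost without the sevoflurane male (1.12) or the control male (1.35).

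CDH18 (ENSMMUG00000004389) had 55.4 and 55.5 CPM in the sevoflurane libraries, against 24.4 and 10.1 CPM in the control libraries. The sevoflurane libraries were nearly equal and the controls differed. For CDH18 the log2 fold change was 1.68 ± 0.45 (edgeR adjusted p = 0.0272). The call was lost without the sevoflurane female (1.69), the sevoflurane male (1.68) or the control male (1.15), and the value was 2.47 without the control female. CDH20 (ENSMMUG00000001713) had 28.5 and 19.4 CPM in the sevoflurane libraries, against 9.26 and 6.4 CPM in the control libraries. Its groups did not overlap, and the log2 fold change was 1.61 ± 0.40 (edgeR adjusted p = 0.0214). The call was lost without the sevoflurane female (1.31) or the control male (1.33).

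The 6 uncalled type II members had log2 fold changes between -0.08 and 1.0. CDH6 had 20.6 and 21.8 CPM in the sevoflurane libraries, against 8.94 and 12.3 CPM in the control libraries, and stood just short of the threshold (edgeR adjusted p = 0.0619). It was called with sex as a term (edgeR adjusted p = 0.0395), with library totals and by DESeq2. CDH10 (ENSMMUG00000012293) was the type II member with the highest mean CPM over all 4 libraries, which is not a level per length. It had 90.7 and 74.3 CPM in the sevoflurane libraries, against 94 and 37.3 CPM in the control libraries. The groups overlapped, with the control female the highest library, and the log2 fold change was 0.33 with a 95% confidence interval of -0.74 to 1.40. It was 1.17 without the control female and -0.22 with the control male left out, so its sign rested on 1 library. CDH11, CDH19, CDH22 and CDH24 had log2 fold changes of 0.27, 0.79, -0.08 and 0.04, none called. With 1 library left out, CDH22 ranged from -1.01 without the sevoflurane female to 0.84 without the control female. CDH24 ranged from -0.59 without the sevoflurane female to 0.48 without the sevoflurane male. CDH11 ranged from -0.09 without the control male to 0.71 without the control female. CDH19 kept its sign, from 0.30 without the control female to 1.49 without the control male. No direction is therefore given for CDH11, CDH22 and CDH24.

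Among non-classical cadherins, CDH13 (T-cadherin, ENSMMUG00000020114) is anchored by a lipid and lacks a cytoplasmic domain. It had 294 and 203 CPM in the sevoflurane libraries, against 174 and 71.4 CPM in the control libraries. Both sevoflurane libraries lay above both controls, but the log2 fold change of 1.02, with a 95% confidence interval of -0.07 to 2.11, was not called (edgeR adjusted p = 0.115). Without the control female it was 1.82 and called, and with sex as a term 1.13 and called (edgeR adjusted p = 0.00586). Without the control male it was 0.48 and not called. CDH23, the tip-link partner of PCDH15 in hair cells, had 2.03 and 6.25 CPM in the sevoflurane libraries, against 1.5 and 11.5 CPM in the control libraries. CDH23 was therefore higher in males than in females in both conditions, and the conditions overlapped. The uncalled log2 fold change of CDH23 was -0.65, ranging from -1.67 without the sevoflurane male to 1.43 without the control male. CDH26 had 7.41 and 8.38 CPM in the sevoflurane libraries, against 4.31 and 3.11 CPM in the control libraries, with an uncalled log2 fold change of 1.09 (edgeR adjusted p = 0.118).

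Clustered protocadherins were represented by 10 PCDHB genes and 1 named ID each for the alpha and gamma clusters. In the alpha and gamma clusters variable exons are spliced to shared constant exons, so reads under PCDHAC2 and PCDHGB5 cannot be assigned to an isoform here. PCDHB genes are similar copies in tandem and may share reads, which makes the split between them uncertain. PCDHGB5 (ENSMMUG00000021963) had 637 and 492 CPM in the sevoflurane libraries, against 629 and 575 CPM in the control libraries. The groups overlapped, and the log2 fold change was -0.09 with a 95% confidence interval of -0.73 to 0.55 (edgeR adjusted p = 0.803). Scaled to library totals it was 0.14, so its sign depended on the scaling, and without the sevoflurane male it was 0.09. PCDHAC2 (ENSMMUG00000014571) had 294 and 283 CPM in the sevoflurane libraries, against 208 and 139.9 CPM in the control libraries. The sevoflurane libraries were the 2 highest, with a log2 fold change of 0.73, a 95% confidence interval of 0.04 to 1.42 and no call (edgeR adjusted p = 0.0829). It was called with sex as a term (0.76, edgeR adjusted p = 0.0414) and with library totals.

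Of the PCDHB genes, PCDHB2, PCDHB4 and PCDHB15 rose and 7 were not called. The 10 genes summed to 64.6 and 56.9 CPM in the sevoflurane libraries, against 25.2 and 18.2 CPM in the control libraries. PCDHB2 (ENSMMUG00000061483) had 116 and 109 reads in the sevoflurane libraries, against 4 and 1 reads in the control libraries, so it passed the read minimum through sevoflurane alone. As levels these were 7.34 and 7.49 CPM with sevoflurane, against 0.261 and 0.0888 CPM in the controls. The log2 fold change was 5.28 ± 0.75 (edgeR adjusted p = 0.00387), and the scaled ratio of reads was 39.4 with a counting interval of 16.6 to 123. Against the 1 read of the control male alone the ratio was 83.4 with an interval of 14.8 to 3310.

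PCDHB4 (ENSMMUG00000019523) had 6.65 and 8.38 CPM in the sevoflurane libraries, against 1.04 and 0.888 CPM in the control libraries. The groups were well apart, with a log2 fold change of 2.94 ± 0.57 by edgeR (adjusted p = 0.00939), although the call was lost without the sevoflurane male (2.77). PCDHB15 (ENSMMUG00000021941) had 82 and 57 reads in the sevoflurane libraries, against 12 and 3 reads in the control libraries. For PCDHB15 the log2 fold change was 3.06 ± 0.75 (edgeR adjusted p = 0.0208). The call was lost without the sevoflurane female (2.86), the sevoflurane male (3.26) or the control male (2.49), and against the control male alone the ratio of reads was 17.2 with a counting interval of 5.76 to 84.3. The uncalled PCDHB genes had log2 fold changes from 0.07 for PCDHB7 to 2.03 for PCDHB8. PCDHB10 had 17 and 13.6 CPM in the sevoflurane libraries, against 6.72 and 1.69 CPM in the control libraries. It was uncalled at 1.85 (edgeR adjusted p = 0.0675), and called at 3.19 without the control female, at 2.10 with sex as a term (edgeR adjusted p = 0.00317) and by DESeq2. Without the control male it was 1.15 and not called. PCDHB8 had 31 and 29 reads in the sevoflurane libraries, against 9 and 4 reads in the control libraries. The sign of PCDHB3 turned to -0.62 without the sevoflurane male, and that of PCDHB7 to -0.21 without the control male.

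The make-up of the reads on members shifted between conditions. Non-clustered protocadherins took 29.4% (95% Wilson interval 29 to 29.9%) and 32.7% (32.3 to 33.2%) of these reads in the sevoflurane libraries, against 14% (13.6 to 14.5%) and 17% (16.5 to 17.6%) in the control libraries. PCDHGB5 alone took 23.1% (22.7 to 23.5%) and 18.4% (18 to 18.8%) in the sevoflurane libraries, against 36.8% (36.2 to 37.3%) and 42.3% (41.5 to 43.1%) in the control libraries. Neither share overlapped between conditions. Classical cadherins took 23.5% and 28% with sevoflurane and 25.1% and 22.7% in the controls, which did overlap. The intervals cover counting error only, and a share of reads falls when other members rise.

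Within sexes, 31 of 43 members (72.1%) were higher in the sevoflurane animal in both the female and the male pair, 5 were lower in both and 7 went opposite ways. Over all genes 42.9% were higher in both pairs and 42.4% lower in both. The members' median difference was 1.06 on the log2 scale in females and 1.39 in males. The control female and control male differed more for these genes than for genes at large, with a median absolute difference of 0.60 for members and 0.38 for all genes. In the sevoflurane pair these values were 0.50 and 0.43. With 1 animal per sex and condition, sex cannot be told apart from the animal. The control male was below the control female in 30 of 43 members (69.8%), against 50.3% of all genes. The sevoflurane male was below the sevoflurane female in 22 of 43 members. The difference between conditions exceeded both gaps between the sexes in 28 of the 43 members (65.1%), close to the 66.1% of all genes.

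**Figure D4:**
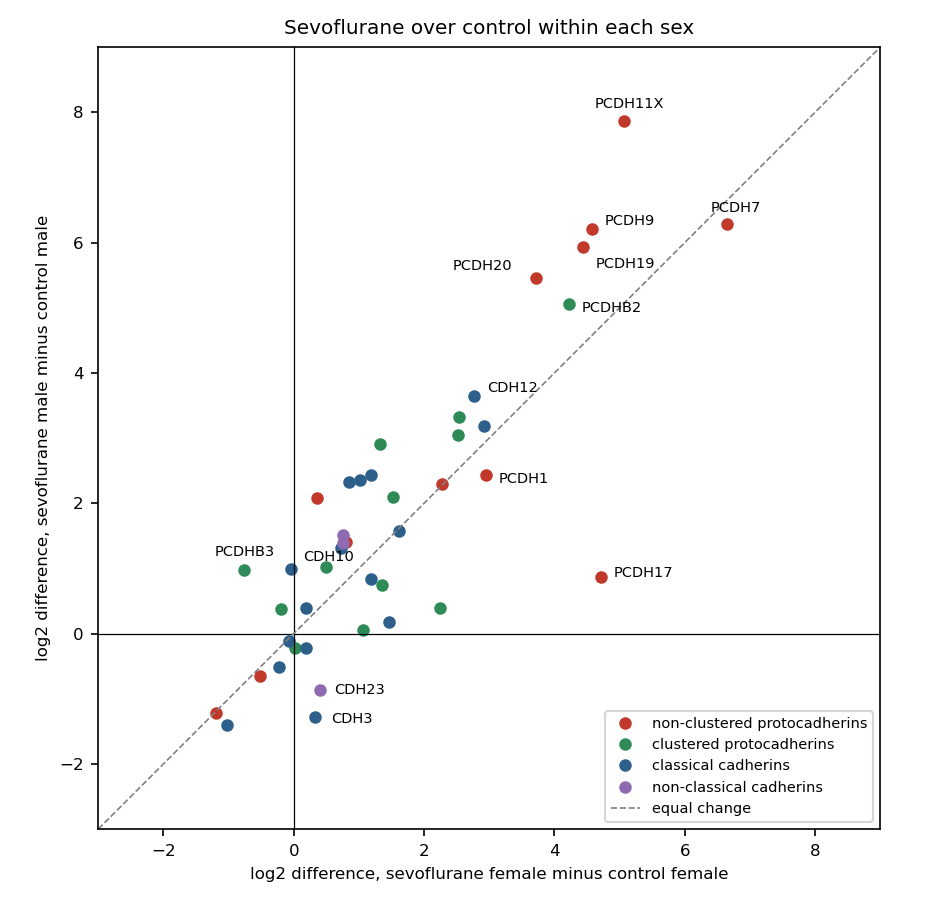
Log2 difference of sevoflurane minus control in females (horizontal) and in males (vertical), 1 point per tested member coloured by class, with log2 CPM at a prior count of 2 and a dashed line of equal change. Of 43 points 31 lie in the upper right part, above 0 on both axes, and PCDH17 lies far below the line at 4.72 in females and 0.87 in males.

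Genes that work with cadherins were described from lists of partners, to be read against the 40.7% of all genes called, 21.3% higher and 19.4% lower, and the median of 0.00. Of 13 catenins and junction scaffolds 6 rose and 1 fell (53.8% called), with a median log2 fold change of 1.08. CTNNA3, with 19 and 13 reads with sevoflurane against 1 and 3 in the controls, passed the read minimum through sevoflurane alone. Its uncalled log2 fold change of 2.68 is counted in that median. MAGI1, a junction scaffold, had 115 and 61.6 CPM in the sevoflurane libraries, against 4.83 and 1.6 CPM in the control libraries. For MAGI1 the log2 fold change was 4.75 ± 0.62 (edgeR adjusted p = 0.00322), or 5.80 with the control male as the only control and 4.15 with the control female. MAGI2, its synaptic relative, had 88.9 and 55.7 CPM in the sevoflurane libraries, against 3.65 and 2.4 CPM in the control libraries, at 4.57 ± 0.43 (edgeR adjusted p = 0.00183). Both scaffolds were far higher in both sevoflurane libraries. ARVCF, a catenin of the p120 family, fell to 40 and 33.4 CPM in the sevoflurane libraries, against 72.4 and 94.9 CPM in the control libraries. Its log2 fold change was -1.19 ± 0.28 (edgeR adjusted p = 0.0181), with the call lost without the sevoflurane male or the control male. The list had 3 genes called higher without the sevoflurane female.

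In the WAVE complex, which carries signals from PCDH10 and other protocadherins to actin, 3 of 9 genes were called higher and the median was 0.38. The 33.3% called was below the 40.7% of all genes called in either direction, and above the 21.3% called higher. NCKAP1 had 480.1 and 589.8 CPM in the sevoflurane libraries, against 255 and 189 CPM in the control libraries, at a log2 value of 1.27 ± 0.28 (edgeR adjusted p = 0.0151). ABI2 followed at 1.22 ± 0.28 (edgeR adjusted p = 0.0171) and WASF3 at 1.01 ± 0.29 (edgeR adjusted p = 0.0343). WASF3 was named after its value was seen. None of the 9 was called without the sevoflurane male or without the control male.

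Of 10 genes that govern promoter choice in the protocadherin clusters, cohesin subunits and chromatin regulators among them, 6 were called higher (60%), and the median was 1.59. In all 10 genes the sevoflurane libraries lay above both controls, against 37.7% of all genes. DNMT3B, with 28 and 16 reads with sevoflurane against 5 and 1 in the controls, passed the read minimum through sevoflurane alone. STAG2, a cohesin subunit, had 96.1 and 108 CPM in the sevoflurane libraries, against 17.1 and 14.7 CPM in the control libraries, at 2.68 ± 0.27 (edgeR adjusted p = 0.00202). SMCHD1, a chromatin protein that represses clustered protocadherins in mice, had 98.2 and 124 CPM in the sevoflurane libraries, against 30.1 and 24.1 CPM in the control libraries. Its log2 fold change was 2.03 ± 0.28 (edgeR adjusted p = 0.00377). CTCF, the insulator protein of these promoters, was not called at 0.57 with a 95% confidence interval of -0.11 to 1.25.

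Of 6 genes for proteins that shed cadherins, 1 rose and 3 fell (66.7% called). ADAM10, a metalloprotease that cleaves N-cadherin and protocadherins, had 94.3 and 130.4 CPM in the sevoflurane libraries, against 45.3 and 49.3 CPM in the control libraries. For ADAM10 the log2 fold change was 1.25 ± 0.28 (edgeR adjusted p = 0.0149), uncalled without the sevoflurane male, the control female or the control male. The 3 genes that fell encode parts of gamma-secretase, with log2 fold changes of -1.89 ± 0.28 for PSENEN, -0.99 ± 0.31 for PSEN2 and -0.79 ± 0.24 for APH1A. Of these, 1 was called with library totals, and 1 without the sevoflurane female, the sevoflurane male or the control male. Among 5 kinases and their targets downstream of protocadherins, MARCKS, a membrane protein that shapes dendrites, was the only gene called (20%). It had 92 and 58.7 CPM in the sevoflurane libraries, against 35.7 and 20.4 CPM in the control libraries, at 1.42 ± 0.39 (edgeR adjusted p = 0.0289), uncalled without the sevoflurane female or the control male.

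Other branches of the cadherin superfamily were set beside the members. Over all genes 21.3% were called higher and 19.4% lower, with a median of 0.00. Of 13 FAT, Dachsous, flamingo and calsyntenin genes 6 were called higher (46.2%), with a median of 2.06, and 6 or 7 were called whichever library was left out. FAT3, a giant cadherin that shapes dendrites in mice, had 65.6 and 48.1 CPM in the sevoflurane libraries, against 2.41 and 2.13 CPM in the control libraries, at 4.64 ± 0.37 (edgeR adjusted p = 0.00146). FAT4, which pairs with Dachsous in planar polarity, had 37.8 and 62.4 CPM in the sevoflurane libraries, against 4.11 and 2.13 CPM in the control libraries, at 3.99 ± 0.48 (edgeR adjusted p = 0.00276). In both genes the groups were far apart. CELSR1, with 50 and 16 reads with sevoflurane against 7 and 0 in the controls, passed the read minimum through sevoflurane alone. Its uncalled log2 fold change of 3.08 is counted in the median of 2.06. Of 6 tested desmosomal and CDHR genes 2 were called higher (33.3%), and none when the sevoflurane female or the sevoflurane male was left out. DSG2, a desmoglein, had 124 and 150 reads in the sevoflurane libraries, against 6 and 24 reads in the control libraries, at 2.87 ± 0.83 (edgeR adjusted p = 0.0346), or 2.11 with the control male as the only control and 4.48 with the control female. DSC3, a desmocollin and the other gene called, had 15 and 61 reads in the sevoflurane libraries, against 0 and 3 reads in the control libraries. DSC3 thus passed the read minimum through sevoflurane alone, where it was high. The ratio of its reads was 22.2 with a counting interval of 7.31 to 110, and its call was also lost without the control female.

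**Figure D5:**
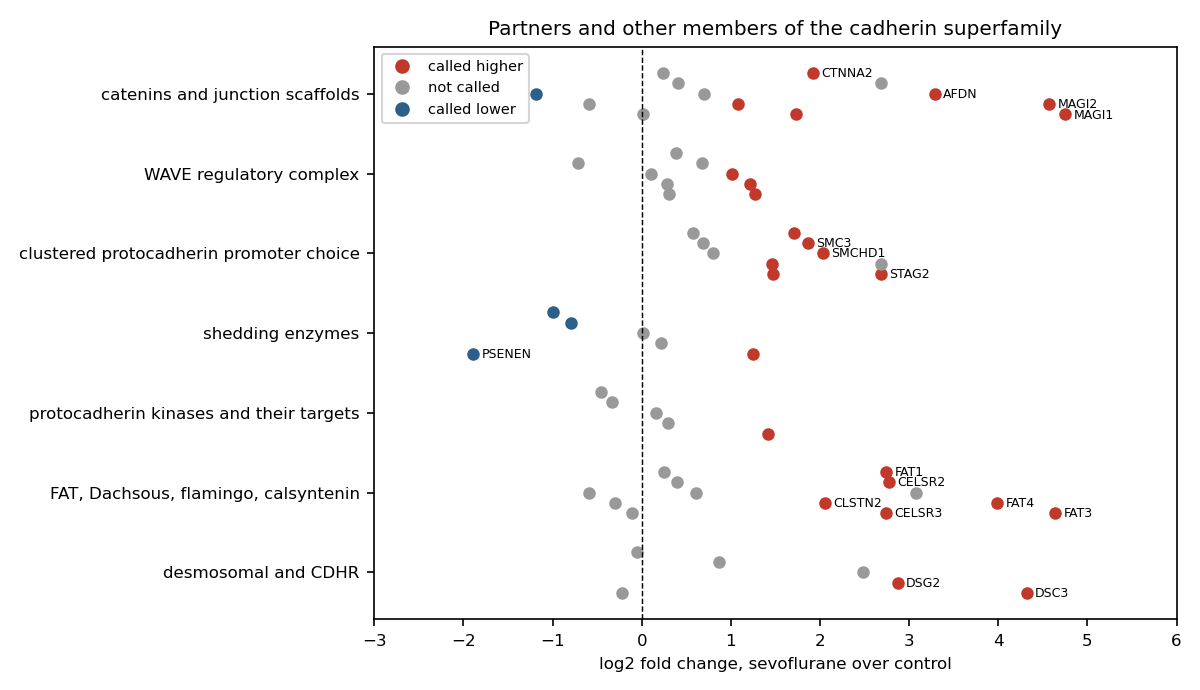
Log2 fold change of sevoflurane over control on the horizontal axis for each tested partner or superfamily gene, 1 row per list, coloured by call. MAGI1, MAGI2, FAT3, FAT4 and DSC3 lie farthest right, and ARVCF, PSENEN, PSEN2 and APH1A are the genes called lower.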

How the data were processed

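RNA was extracted with Trizol and sequenced as Illumina libraries, per the labels' protocols, and HISAT2 is named in the submitters' processing notes. The deposited values are raw read counts per Ensembl gene ID, made by the authors. The sources used here do not give the counting rule, strand setting or genome build. Symbols came from the paired ID table (24173 of 35395 IDs), and no coordinates, gene lengths or sequences were used.

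Genes were filtered with edgeR's filterByExpr (minimum count 10), scaled by TMM and tested with edgeR 4.0.16 quasi-likelihood (R 4.3.3), with condition alone in the model (residual degrees of freedom 2), with Benjamini-Hochberg adjustment over 15417 genes. The ± values are standard errors, and levels are TMM-scaled CPM. The steps were tested on simulated data with a set spread, the same for every gene, in which 200 of 15417 genes were changed. There 11.5% of the genes changed 2-fold were called, and 97.5% of those changed 8-fold. In the data 40.7% of genes were called, far more than were changed in the simulation, so these rates need not hold for the reported fit. A member not called may still have changed by 2-fold. Alternatives were library totals, RLE, DESeq2 1.42.0, 2 other filters, sex as a term, and leaving out each library. Members and lists were chosen with earlier results of these data known. Named genes were, per class, up to 4 called higher and 3 lower by fold change plus the member of highest mean level, and up to 2 each way per partner list. All genes of a direction with 5 or fewer called were also named. The other members are given to account for every member. Ribosomal protein genes were added after seeing the data. Of the listed symbols, 5 had no ID.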

Additional observations from a re-analysis of the deposited data

Results flagged for a closer look

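In 7 members the sevoflurane animal was above its control in one sex and below it in the other, and none of the 7 was called. The difference between the sexes was not tested, because 1 library per sex and condition leaves no residual degrees of freedom for it. CDH10, a type II cadherin, had a log2 difference of -0.05 in females and 0.99 in males. CDH3 (P-cadherin) had 0.32 in females and -1.28 in males. CDH24 had 0.18 in females and -0.22 in males. CDH23, the tip-link cadherin, had 0.40 in females and -0.87 in males. PCDHB3 had -0.76 in females and 0.97 in males. PCDHB7 had -0.19 in females and 0.37 in males. PCDHGB5 had 0.02 in females and -0.22 in males.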

How the results depend on the processing

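The 18 members called higher were called under both other scalings, DESeq2, both other filters and with sex as a term. CDH7, PCDHB2, PCDH1, PCDH7, PCDH9, PCDH11X, PCDH19 and PCDH20 were also called whichever library was left out. Clustered members called higher numbered 5 with library totals and 5 with sex as a term, against 3 in the reported fit. Non-classical members called higher numbered 1 with every gene of at least 1 read and 1 with sex as a term, against 0. Leaving out each library gave 1967 to 3029 genes called higher and 1502 to 2771 lower, 9 to 20 members higher, 2 to 6 classical, 1 to 4 clustered, 0 to 1 non-classical and 6 to 9 non-clustered. An arm of 1 library was assumed to vary like the other. No member was called lower under any of these settings. Library totals moved the median of all genes to 0.24 and gave 63.3% of calls as higher, against 52.3% with TMM. CDH22 and PCDHGB5 changed sign with library totals, and 10 of the 25 uncalled members (CDH3, CDH4, CDH10, CDH11, CDH22, CDH23, CDH24, PCDHB3, PCDHB7 and PCDHGB5) did so without 1 library. Low counts limit the precision of the PCDHB genes, PCDH11X and DSC3. The cause of these shifts was not tested.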
